A study of Rattus norvegicus with 8 samples.

Results

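The genes described here make cholesterol in rat liver or control its synthesis: 27 genes named by function, from the enzymes that build isoprenoid precursors to the proteins that hold or release the transcription factor SREBP-2 and a few carriers that move sterols inside the cell. The rule lists them by name, and the genes were chosen with earlier results of these data known. Each gene was read on 1 probe set, the one with the highest mean signal among the probe sets whose annotation gives that symbol alone. Of the 27, 25 had such a probe set and 24 passed a filter on low signals, out of 16253 probe sets tested, which name 9829 genes. Hmgcs1 and Npc1 had no single-symbol probe set in the annotation used, and Ggps1, the synthase of geranylgeranyl diphosphate, stayed between 5.15 and 5.59 on the log2 scale on the 8 arrays, with the mean of every group under the array-wide background level of 5.49, and was not tested.

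Livers of male Sprague-Dawley rats weighing 180 to 200 g were profiled on 8 Affymetrix expression arrays that form 4 groups of 2. The rats received 3 days of oral gavage, either of GW3965 (50 mg/kg), a synthetic agonist of the liver X receptors, or of its vehicle. On the last day they also received an intramuscular injection of dexamethasone at 1.5 mg/kg, a synthetic glucocorticoid, or of saline, and livers were taken 24 h later. The group called vehicle thus had gavage vehicle and saline, Dex had gavage vehicle and dexamethasone, GW3965 had GW3965 and saline, and Dex+GW3965 had both compounds, so that every rat was gavaged and injected. By their names, arrays a and b of a group carry the same liver number, although the methods describe 2 animals per group. The p-values may therefore measure only the spread between arrays of 1 liver. The arrays read whole liver, in which fewer cells of a type and less RNA per cell cannot be told apart.

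Hepatocytes make cholesterol from acetyl-CoA by way of mevalonate, farnesyl diphosphate, squalene and lanosterol. When the endoplasmic reticulum is poor in sterols, Scap carries SREBP-2 to the Golgi apparatus, where proteases release the part that switches on nearly every enzyme of the pathway. When sterols are plentiful, Insig proteins keep Scap in the endoplasmic reticulum and transcription of the pathway falls. Liver X receptors sense oxysterols, which are made from cholesterol, and switch on sterol export and fatty acid synthesis.

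Replicate arrays lay close together. The median absolute difference between arrays a and b over all probe sets tested was between 0.0698 and 0.089 log2 units in the 4 groups, and over the 24 sterol genes it was between 0.0416 and 0.0547. Lss had the widest gap among the sterol genes in the vehicle group, 0.19, and Lbr in the other groups, up to 0.33. The liver label was checked on 6 hepatocyte markers, whose mean signal was between 13.96 and 14.30 on all arrays. All values below are log2 signals or differences between log2 signals, and a change was called at a Benjamini-Hochberg adjusted p under 0.05 from limma over the 16253 probe sets.

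Most of the sterol genes were lower in livers exposed to dexamethasone. Against vehicle, 18 of the 24 were lower and 3 were higher, where 24.7% of all probe sets tested were lower and 17.2% were higher. The median difference was -0.56 over the sterol genes and -0.01 over all probe sets. GW3965 alone gave a mixed picture, with 10 lower and 3 higher beside 14.5% lower and 5.93% higher among all probe sets, and medians of -0.07 and -0.03. Sc5d is among the 10, since it is counted on its brightest probe set and had a further probe set that was higher. With both compounds 17 were lower and 4 were higher against vehicle, beside 21.2% lower and 15.6% higher among all probe sets, and the median was -0.26 over the sterol genes and -0.02 over all. These 3 comparisons share the vehicle arrays.

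**Figure D1:**
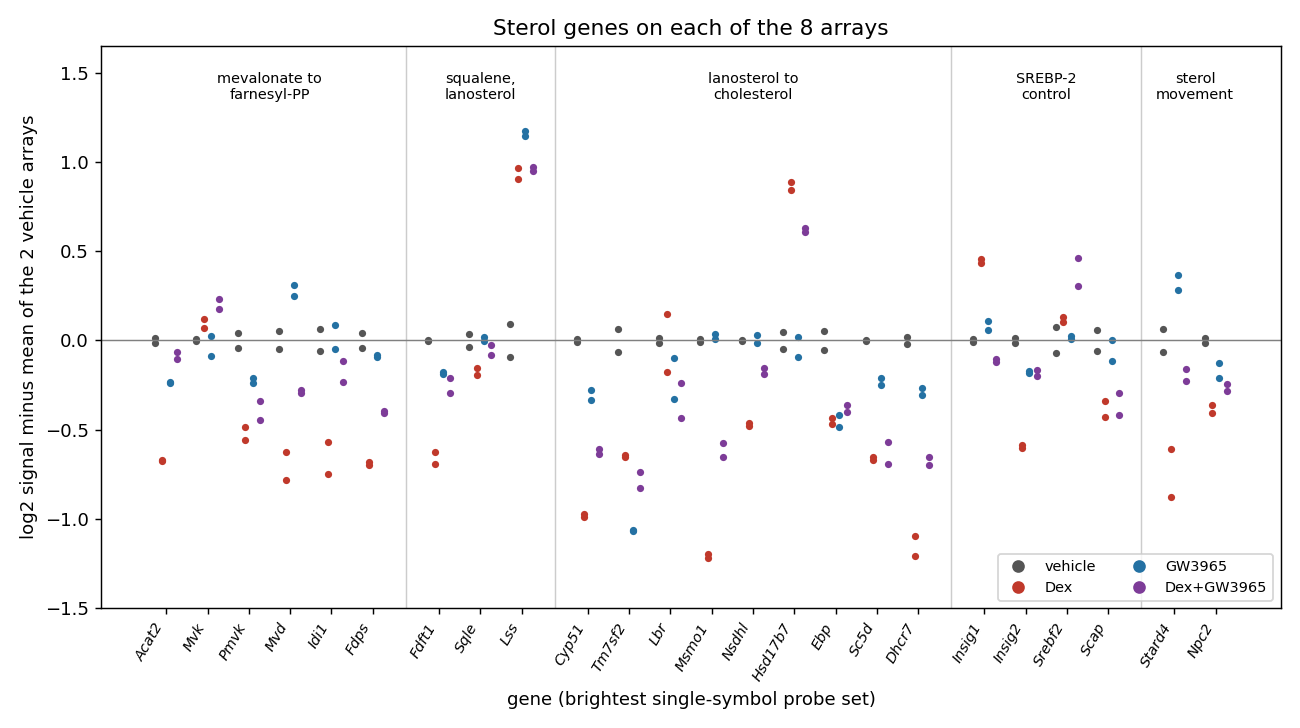
Log2 signal of each of the 24 tested genes on each array, as the difference from the mean of the 2 vehicle arrays (y axis), with the genes in pathway order (x axis) and the groups in colors. The Dex points of Msmo1, Dhcr7 and Cyp51 lie lowest, about 1 log2 unit or more below vehicle, while Lss stands above vehicle in all treated groups and Hsd17b7 in both groups given dexamethasone.

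The comparison of Dex+GW3965 with Dex asks what GW3965 changed in livers that also received dexamethasone. Here 12 of the 24 were higher and 2 were lower, beside 13.4% higher and 9.38% lower among all probe sets, and the medians were 0.20 over the sterol genes and -0.0007 over all probe sets. This comparison shares the Dex arrays with that of Dex against vehicle. Dexamethasone in livers that also received GW3965, Dex+GW3965 against GW3965, gave 13 lower and 5 higher, beside 16.8% and 19% of all probe sets, with medians of -0.17 and -0.01.

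Promoters of 5 of these genes are shown because they moved in different directions under dexamethasone. Msmo1 and Insig2 fell, and Lss, Hsd17b7 and Insig1 rose. Each line gives 200 bases up to the start site in the RefSeq promoter table, 5′ to 3′ on the gene's strand, in the rat assembly GRCr8. For Insig2 that start site lies 12839 bases inside the gene's annotated span, so its window does not end at the outermost start of the gene, while for the other 4 it lies at most 56 bases inside the span. Capitals mark the CCAAT box, read as ATTGG when it lies on the other strand, and TCACNCC, a shortened core of the sterol regulatory element that SREBPs bind. The window of Msmo1 is chr16:29746913-29747112 on the plus strand, that of Insig2 is chr13:35040099-35040298 on the minus strand, that of Lss is chr20:12118231-12118430 on the minus strand, that of Hsd17b7 is chr13:84722755-84722954 on the minus strand, and that of Insig1 is chr4:8057770-8057969 on the minus strand.
Msmo1: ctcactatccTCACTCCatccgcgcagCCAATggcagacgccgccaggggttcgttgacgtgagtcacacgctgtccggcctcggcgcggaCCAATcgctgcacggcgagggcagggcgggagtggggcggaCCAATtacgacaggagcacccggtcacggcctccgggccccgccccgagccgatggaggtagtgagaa
Insig2: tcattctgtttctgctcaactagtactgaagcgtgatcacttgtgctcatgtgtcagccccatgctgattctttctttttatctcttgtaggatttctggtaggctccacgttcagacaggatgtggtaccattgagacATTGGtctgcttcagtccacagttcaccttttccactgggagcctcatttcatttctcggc
Lss: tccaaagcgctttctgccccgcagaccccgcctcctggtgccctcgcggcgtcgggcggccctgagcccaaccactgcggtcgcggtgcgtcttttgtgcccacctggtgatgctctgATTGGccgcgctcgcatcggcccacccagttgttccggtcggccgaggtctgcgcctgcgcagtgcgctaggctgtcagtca
Hsd17b7: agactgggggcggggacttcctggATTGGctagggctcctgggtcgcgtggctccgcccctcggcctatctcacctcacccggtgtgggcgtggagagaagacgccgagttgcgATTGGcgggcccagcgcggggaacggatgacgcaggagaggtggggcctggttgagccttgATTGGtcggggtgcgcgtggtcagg
Insig1: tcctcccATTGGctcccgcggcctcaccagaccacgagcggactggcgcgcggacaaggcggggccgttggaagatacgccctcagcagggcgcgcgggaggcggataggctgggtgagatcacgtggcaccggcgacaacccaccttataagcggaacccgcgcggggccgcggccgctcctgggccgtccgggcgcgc

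The windows of Msmo1 and Hsd17b7 each held 3 CCAAT boxes, and those of Insig2, Lss and Insig1 held 1 each. Msmo1 also held the shortened sterol element core, and the other 4 windows did not. Over the 300 bases from 250 before to 50 after the start, read on both strands, 23 of the 27 genes had a RefSeq window. Besides Insig2, the windows of Hmgcs1 and Srebf2 start well inside the gene's span, by 2847 and 533 bases, and the other 20 by at most 90. A CCAAT box, the site of the factor NF-Y that acts beside SREBPs, was found in 18 of the 23 (78.3%) and in 37.5% of all 33469 windows. The full sterol element core TCACNCCAC was in none of the 23 and in 1.12% of all windows. The shortened core TCACNCC, added after the full core had given no match and contained in it, was in the windows of Acat2, Mvd, Cyp51, Msmo1 and Srebf2, 21.7% of the 23, beside 14.6% of all windows. The E-box CACGTG was in those of Sc5d, Insig1 and Scap, 13% beside 6.42%. These matches describe letters in a window and not binding.

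**Figure D2:**
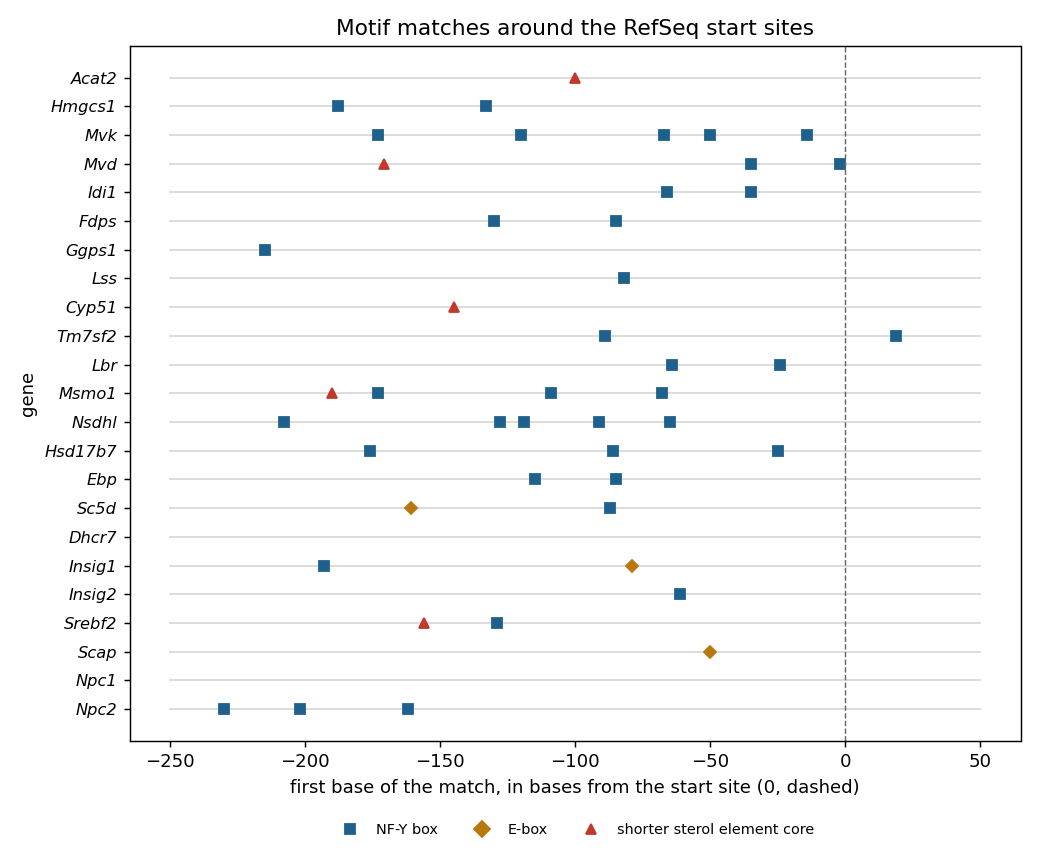
First base of each motif match (x axis, bases from the RefSeq start site) in the 23 genes with a window (y axis). Squares are NF-Y boxes, diamonds are E-boxes and triangles are the shortened sterol element core, and 18 of the 23 lines carry at least 1 square.

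The first enzymes lead from acetyl-CoA to farnesyl diphosphate. With dexamethasone 5 of the 6 tested were lower than vehicle, beside 24.7% of all probe sets. The 5 differences were close in size, from -0.52 to -0.70. Acat2, which joins acetyl-CoA units, stood at 9.06 and 9.03 on the vehicle arrays, 8.37 and 8.38 with Dex, 8.81 and 8.81 with GW3965, and 8.94 and 8.98 with Dex+GW3965. Neither compound's arrays overlapped vehicle, and the arrays with both compounds lay above those with either one alone. Acat2 fell by 0.67 with dexamethasone (SE 0.052, adjusted p = 7.35e-09), a 1.59-fold decrease, and fell by 0.23 with GW3965 (adjusted p = 0.00354). With both compounds it was -0.08 from vehicle, which did not pass (adjusted p = 0.227, 95% confidence interval -0.19 to 0.02).

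Mvd, the decarboxylase that makes isopentenyl diphosphate, moved in opposite directions under the compounds. Its arrays read 7.81 and 7.91 with vehicle, 7.23 and 7.08 with Dex, 8.17 and 8.11 with GW3965, and 7.56 and 7.58 with Dex+GW3965. The GW3965 arrays were the highest and the Dex arrays the lowest, and no groups overlapped. Mvd fell by 0.70 with dexamethasone (SE 0.074, adjusted p = 4.24e-07) and rose by 0.28 with GW3965 (adjusted p = 0.0123). The rise with GW3965 did not pass without vehicle array a (0.23, adjusted p = 0.0908), GW3965 array a (0.25, adjusted p = 0.105) or GW3965 array b (0.31, adjusted p = 0.0529). With both compounds Mvd was -0.29 from vehicle (adjusted p = 0.00518), or -0.24 without vehicle array b (adjusted p = 0.0536).

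Fdps, the farnesyl diphosphate synthase, had the smallest error of this stretch. It read 12.49 and 12.57 with vehicle, 11.83 and 11.85 with Dex, 12.44 and 12.45 with GW3965, and 12.13 and 12.12 with Dex+GW3965. The Dex arrays were lowest and the arrays with both compounds lay between them and vehicle. It fell by 0.69 with dexamethasone (SE 0.035, adjusted p = 2.36e-11) and by 0.40 with both compounds (adjusted p = 4.68e-08). The value with GW3965 alone was -0.09 (adjusted p = 0.0894).

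Idi1, the isomerase between Mvd and Fdps, fell by 0.66 with dexamethasone (adjusted p = 1.11e-07) and was 0.02 from vehicle with GW3965 (adjusted p = 0.886). With both it was -0.17 from vehicle (adjusted p = 0.0358), a call lost without vehicle array a (-0.11, adjusted p = 0.25) or Dex+GW3965 array a (-0.12, adjusted p = 0.277). Pmvk, phosphomevalonate kinase, fell by 0.52 with dexamethasone (adjusted p = 5.43e-07) and by 0.39 with both (adjusted p = 2.12e-05). Its value with GW3965 alone was -0.22 (adjusted p = 0.00805), and -0.18 without vehicle array b (adjusted p = 0.0706) or -0.21 without GW3965 array a (adjusted p = 0.0735). Mvk, the mevalonate kinase just before it, differed from the others in this stretch. Mvk was 0.09 from vehicle with dexamethasone (adjusted p = 0.205) and -0.03 with GW3965 (adjusted p = 0.755). With both it rose by 0.20 (adjusted p = 0.00879), a call lost without Dex+GW3965 array a (0.18). A further Mvk probe set rose by 0.34 with both (adjusted p = 0.000585). That probe set was also 0.25 above Dex (adjusted p = 0.0106), where the brightest was at 0.11 (adjusted p = 0.193).

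The next 3 enzymes join farnesyl units to squalene and close the ring to lanosterol. Fdft1, squalene synthase, read 10.81 and 10.81 with vehicle, 10.12 and 10.19 with Dex, 10.62 and 10.64 with GW3965, and 10.51 and 10.60 with Dex+GW3965. On this brightest probe set, all treated arrays lay under both vehicle arrays and the Dex arrays were lowest. With GW3965 a further Fdft1 probe set was -0.04 from vehicle, which did not pass (adjusted p = 0.719). The brightest fell by 0.66 with dexamethasone (SE 0.043, adjusted p = 7.2e-10), a 1.58-fold decrease, and by 0.25 with both compounds (adjusted p = 0.000118). With GW3965 alone Fdft1 fell by 0.18 (adjusted p = 0.00542), and the value without GW3965 array a was -0.18 (adjusted p = 0.0522).

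Sqle, the squalene epoxidase that adds the first oxygen, moved least among the genes lower with dexamethasone. Its arrays were between 8.21 and 8.28 with vehicle and between 8.05 and 8.10 with Dex. The groups did not overlap, and the difference was -0.17 (SE 0.061, adjusted p = 0.0284). The call was lost without Dex array a (-0.20, adjusted p = 0.0605), Dex array b (-0.15, adjusted p = 0.146) or vehicle array b (-0.14, adjusted p = 0.148). Sqle was 0.01 from vehicle with GW3965 and -0.05 with both, and neither passed (adjusted p = 0.938 and 0.546).

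Lss, the lanosterol synthase, was higher than vehicle under each treatment. It read 7.78 and 7.97 with vehicle, 8.78 and 8.83 with Dex, 9.02 and 9.04 with GW3965, and 8.84 and 8.82 with Dex+GW3965. All 6 treated arrays stood above both vehicle arrays, and those with both compounds overlapped those with Dex alone. Lss rose 1.91-fold with dexamethasone (0.93, SE 0.063, adjusted p = 1.2e-09) and 2.23-fold with GW3965 (1.16, adjusted p = 4.38e-10). With both it was 1.95-fold above vehicle (0.96, adjusted p = 1.14e-09) and 0.03 from Dex (adjusted p = 0.827). A further probe set of Lss rose under each treatment too, by 0.65, 0.82 and 0.76.

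The 9 enzymes from lanosterol to cholesterol held the largest decreases. With dexamethasone 7 were lower and 1 was higher, with GW3965 5 were lower, and with both 8 were lower and 1 was higher. The 5 include Sc5d, whose brightest probe set was lower and whose further probe sets disagreed. Over all probe sets 24.7% were lower and 17.2% higher with dexamethasone, 14.5% lower with GW3965, and 21.2% lower and 15.6% higher with both. The median of the 9 was -0.65 with dexamethasone, -0.23 with GW3965 and -0.61 with both.

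Cyp51, which removes a methyl group from lanosterol, read 11.75 and 11.76 with vehicle, 10.78 and 10.76 with Dex, 11.42 and 11.48 with GW3965, and 11.12 and 11.15 with Dex+GW3965. The groups did not overlap and their order was vehicle, GW3965, both compounds and Dex. It fell by 0.98 with dexamethasone (SE 0.036, adjusted p = 3.03e-13), a 1.98-fold decrease. It fell by 0.31 with GW3965 (adjusted p = 8.86e-06) and by 0.62 with both (adjusted p = 2.4e-10).

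Tm7sf2 and Lbr each encode a sterol reductase that acts after Cyp51. Tm7sf2 read 10.44 and 10.57 with vehicle, 9.85 and 9.86 with Dex, 9.44 and 9.44 with GW3965, and 9.77 and 9.68 with Dex+GW3965. It was lowest with GW3965 alone, where it fell by 1.06 (SE 0.050, adjusted p = 6.57e-11), a 2.09-fold decrease and the most negative value of any sterol gene in that comparison. It fell by 0.65 with dexamethasone (adjusted p = 6.84e-09) and by 0.78 with both (adjusted p = 7.45e-10). Lbr, which also anchors chromatin at the nuclear envelope, varied more between replicates than the other sterol genes in the treated groups. Its difference was -0.01 with dexamethasone (adjusted p = 0.94), -0.21 with GW3965 (adjusted p = 0.248) and -0.34 with both (adjusted p = 0.0383). The last call was lost without vehicle array a (-0.32, adjusted p = 0.116), vehicle array b (-0.35, adjusted p = 0.0951) or Dex+GW3965 array a (-0.24, adjusted p = 0.252).

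Msmo1, Nsdhl and Hsd17b7 work in turn to strip the methyl groups at the fourth carbon of the sterol. Msmo1, the oxidase, read 11.10 and 11.12 with vehicle, 9.91 and 9.89 with Dex, 11.15 and 11.12 with GW3965, and 10.54 and 10.46 with Dex+GW3965. The GW3965 arrays overlapped vehicle, the Dex arrays were lowest, and the arrays with both compounds lay midway. Msmo1 fell by 1.21 with dexamethasone (SE 0.041, adjusted p = 7.96e-14), a 2.31-fold decrease and the most negative difference of the sterol genes in that comparison. It was 0.02 from vehicle with GW3965 (adjusted p = 0.789, 95% confidence interval -0.07 to 0.11) and fell by 0.61 with both (adjusted p = 1.22e-09).

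Nsdhl, the dehydrogenase of this step, showed the same order with smaller differences, falling by 0.47 with dexamethasone (adjusted p = 2.88e-09) and by 0.17 with both (adjusted p = 0.000582), and lying 0.01 from vehicle with GW3965 (adjusted p = 0.899). A further probe set of Nsdhl was lower with GW3965, at -0.16 (adjusted p = 0.0122). Hsd17b7, the ketoreductase that follows, rose instead. It read 8.46 and 8.56 with vehicle, 9.40 and 9.35 with Dex, 8.41 and 8.53 with GW3965, and 9.14 and 9.11 with Dex+GW3965. Both groups given dexamethasone stood above the other groups without overlap. Hsd17b7 rose 1.82-fold with dexamethasone (0.87, SE 0.058, adjusted p = 9.98e-10) and 1.54-fold with both compounds (0.62, adjusted p = 1.17e-07). With GW3965 it was -0.04 from vehicle (adjusted p = 0.724), whereas a further probe set of Hsd17b7 was lower there, at -0.24 (adjusted p = 0.0099).

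Ebp, Sc5d and Dhcr7 finish the molecule. Dhcr7, the reductase of the last step, read 11.11 and 11.07 with vehicle, 9.99 and 9.88 with Dex, 10.78 and 10.82 with GW3965, and 10.39 and 10.44 with Dex+GW3965. The order was that of Cyp51, with no overlap between groups. Dhcr7 fell by 1.15 with dexamethasone (SE 0.045, adjusted p = 5.66e-13), a 2.22-fold decrease, by 0.29 with GW3965 (adjusted p = 0.00016) and by 0.67 with both (adjusted p = 1.27e-09). Ebp, the sterol isomerase, fell by similar amounts under each treatment, by 0.45 with dexamethasone (adjusted p = 1.34e-07), by 0.45 with GW3965 (adjusted p = 6.68e-07) and by 0.38 with both (adjusted p = 1.59e-06). Sc5d, the desaturase before Dhcr7, fell by 0.66 with dexamethasone (adjusted p = 1.01e-09) and by 0.63 with both (adjusted p = 2.69e-09). Its probe sets disagreed for GW3965 alone. The brightest gave -0.23 (adjusted p = 0.00109), another gave -0.53 and a further one gave 0.26, each passing. Sc5d is counted as lower there only because its brightest probe set was.

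**Figure D3:**
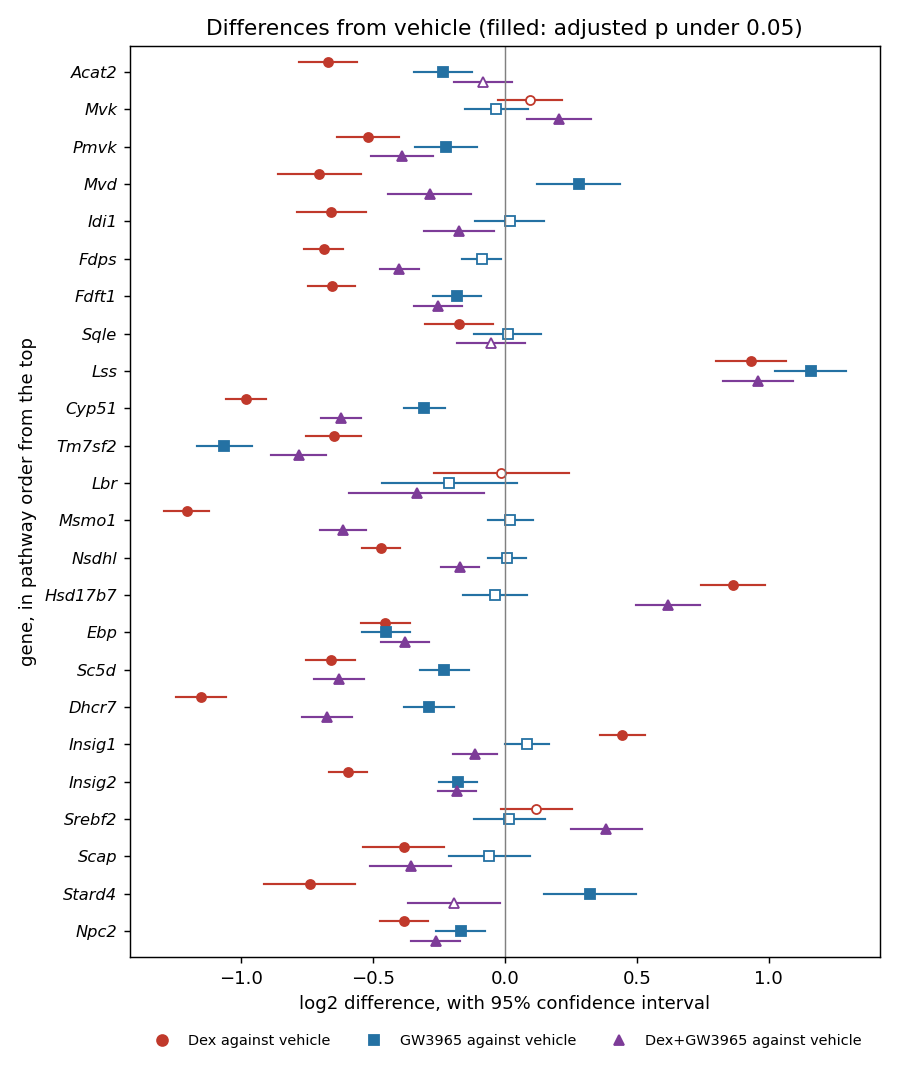
Log2 difference from vehicle (x axis, with 95% confidence interval) of each tested gene (y axis) for Dex, GW3965 and Dex+GW3965. Filled symbols passed at an adjusted p under 0.05, and for Msmo1, Idi1 and Nsdhl the GW3965 squares are open and sit near 0 while the Dex circles lie at -1.21, -0.66 and -0.47. Each gene is drawn from its brightest probe set, and a further Nsdhl probe set was at -0.16 with GW3965.

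The proteins that control SREBP-2 did not move as a group. Insig1, itself a target of SREBPs, read 10.39 and 10.40 with vehicle, 10.85 and 10.83 with Dex, 10.50 and 10.46 with GW3965, and 10.29 and 10.27 with Dex+GW3965. The Dex arrays stood above all others and the arrays with both compounds below all others. Insig1 rose 1.36-fold with dexamethasone (0.45, SE 0.040, adjusted p = 4.77e-08) and was 0.08 from vehicle with GW3965 (adjusted p = 0.158). With both it was -0.11 from vehicle (adjusted p = 0.0314), a call lost without any 1 of the 4 arrays compared, with values of -0.12 and -0.11 without vehicle arrays a and b and of -0.12 and -0.11 without Dex+GW3965 arrays a and b (adjusted p = 0.0501, 0.0897, 0.0761 and 0.138).

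Insig2, the other gene of the pair, went the other way. It read 12.12 and 12.09 with vehicle, 11.51 and 11.52 with Dex, 11.92 and 11.93 with GW3965, and 11.91 and 11.94 with Dex+GW3965. The Dex arrays stood apart below the rest, and those with GW3965 alone and with both compounds overlapped. Insig2 fell by 0.59 with dexamethasone (SE 0.034, adjusted p = 1.21e-10), a 1.51-fold decrease, and by 0.18 with GW3965 (adjusted p = 0.00102) and by 0.18 with both (adjusted p = 0.000308). A further Insig2 probe set fell by 0.72 with dexamethasone, by 0.25 with GW3965 and by 0.39 with both. Its value with both was also lower than with GW3965 alone, at -0.14 (adjusted p = 0.0108).

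Srebf2, the gene of SREBP-2, read 8.57 and 8.71 with vehicle, 8.77 and 8.74 with Dex, 8.66 and 8.65 with GW3965, and 9.10 and 8.94 with Dex+GW3965. The arrays with both compounds were the highest. Its difference was 0.12 with dexamethasone (adjusted p = 0.154) and 0.02 with GW3965 (adjusted p = 0.9), and it rose by 0.38 with both (SE 0.064, adjusted p = 0.000106). A further Srebf2 probe set was below background in every group, and the rise did not pass when the probe sets of the gene were averaged. Scap, the escort of SREBPs, fell by 0.38 with dexamethasone (adjusted p = 0.000329) and by 0.36 with both (adjusted p = 0.000759), and was -0.06 from vehicle with GW3965 (adjusted p = 0.638). A further Scap probe set fell by 0.38 with dexamethasone (adjusted p = 0.0139) and did not pass with both (-0.15, adjusted p = 0.345).

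Among the carriers, Stard4, which moves sterols through the cytosol, showed the same order of groups as Mvd. It read 8.23 and 8.10 with vehicle, 7.29 and 7.56 with Dex, 8.53 and 8.45 with GW3965, and 8.01 and 7.94 with Dex+GW3965. No groups overlapped, with GW3965 highest and Dex lowest. Stard4 fell by 0.74 with dexamethasone (SE 0.082, adjusted p = 7.98e-07) and rose by 0.32 with GW3965 (adjusted p = 0.00934), a rise of 0.26 without vehicle array b (adjusted p = 0.0847) and of 0.28 without GW3965 array a (adjusted p = 0.103). With both it was -0.19 from vehicle (adjusted p = 0.0768). The other Stard4 probe sets gave smaller differences, -0.34 and 0.01 with dexamethasone and 0.03 and 0.08 with GW3965. The probe set that gave 0.01 and 0.08 had a mean signal of 5.41, under the background level, and it enters the average below. Averaged over its probe sets, Stard4 was -0.36 from vehicle with dexamethasone (adjusted p = 0.000675) and 0.15 with GW3965, which did not pass (adjusted p = 0.137). Npc2, which binds cholesterol inside lysosomes, fell by 0.38 with dexamethasone (adjusted p = 1.09e-06) and by 0.26 with both (adjusted p = 0.000102). With GW3965 it was -0.17 from vehicle (adjusted p = 0.0106), or -0.13 without GW3965 array b (adjusted p = 0.161).

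Against Dex alone, the livers given both compounds had higher levels of Acat2, Mvd, Idi1, Fdps, Fdft1, Cyp51, Msmo1, Nsdhl, Dhcr7, Insig2, Srebf2 and Stard4. Msmo1 was 1.51-fold higher (0.59, SE 0.041, adjusted p = 6.46e-09), Acat2 was 1.50-fold higher (0.59, adjusted p = 1.66e-07), and Dhcr7 was 1.39-fold higher (0.48, adjusted p = 3.61e-07). Stard4 was 0.55 higher (adjusted p = 8.61e-05) and Srebf2 0.27 higher (adjusted p = 0.00541), the latter 0.19 without Dex+GW3965 array a (adjusted p = 0.0949). Insig1 and Hsd17b7 were lower. Insig1 fell by 0.56 (adjusted p = 1e-08), a 1.47-fold decrease. Hsd17b7 fell by 0.25 (adjusted p = 0.00441), a call lost without Dex array a (-0.22). A further Hsd17b7 probe set was -0.07 from Dex, which did not pass (adjusted p = 0.445).

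Pmvk, Sqle, Tm7sf2, Ebp, Sc5d, Scap and Npc2, though lower than vehicle with dexamethasone, did not pass in this comparison. Pmvk was 0.13 from Dex (adjusted p = 0.109) and Sqle 0.12 (adjusted p = 0.174). Ebp was 0.07 from Dex (adjusted p = 0.257, 95% confidence interval -0.02 to 0.17) and the brightest Sc5d probe set 0.03 (adjusted p = 0.673, 95% confidence interval -0.06 to 0.12). Both further probe sets of Sc5d were higher than with Dex, by 0.33 (adjusted p = 0.00165) and by 0.17 (adjusted p = 0.0131). Tm7sf2 was at -0.13 (adjusted p = 0.0659).

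**Figure D4:**
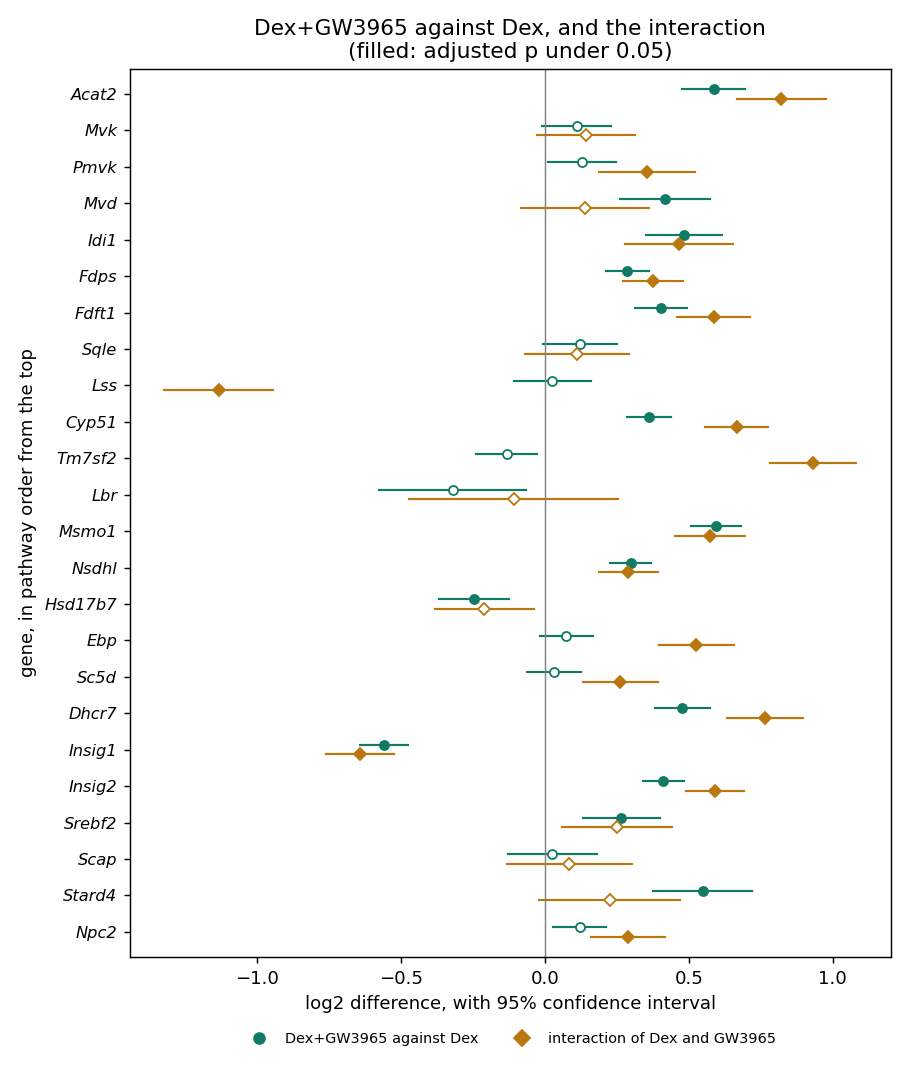
For each tested gene (y axis), the log2 difference of Dex+GW3965 from Dex (circles) and the interaction of the compounds (diamonds), with 95% confidence intervals (x axis) and filled symbols where the adjusted p was under 0.05. Lss and Insig1 are the only filled diamonds left of 0, at -1.13 and -0.64.

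Dexamethasone was measured in separate sets of arrays, without GW3965 (Dex against vehicle) and with it (Dex+GW3965 against GW3965). Of the 18 genes lower without GW3965, 11 were lower, 2 were higher and 5 did not pass with it. The same split was not counted for all probe sets lower without GW3965, so it cannot be called particular to these genes. The genes lower in both settings were Pmvk, Mvd, Idi1, Fdps, Cyp51, Msmo1, Nsdhl, Sc5d, Dhcr7, Scap and Stard4, and those higher with GW3965 present were Acat2 and Tm7sf2. Sc5d is counted on its brightest probe set, at -0.40 with GW3965 present. Its further probe sets gave 0.03 (adjusted p = 0.818) and -0.83 (adjusted p = 1.59e-10) there. The further Scap probe set gave -0.12 there, which did not pass (adjusted p = 0.47). The median size of the difference, sign set aside, was 0.654 without GW3965 and 0.218 with it, beside 0.174 and 0.152 over all probe sets. Of the 24 genes, 21 had a smaller difference with GW3965, a count that was not made over all probe sets. Across the 24 genes, which are not independent replicates, Pearson's r between both sets of differences was 0.561.

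Among these, Msmo1 fell by 0.63 with GW3965 present (adjusted p = 7.86e-10) and Mvd fell by 0.57 (adjusted p = 8.08e-06), while Hsd17b7 rose by 0.65 (adjusted p = 5.71e-08). Tm7sf2 rose by 0.28 (adjusted p = 0.000209), Srebf2 rose by 0.37 (adjusted p = 0.000172) and Insig1 fell by 0.20 (adjusted p = 7e-04). Several calls depended on single arrays. Acat2 (0.15, adjusted p = 0.0315) and Lss (-0.20, adjusted p = 0.0196) did not pass without any 1 of the 4 arrays compared, with values from 0.13 to 0.17 for Acat2 and from -0.19 to -0.21 for Lss. Pmvk (-0.17, adjusted p = 0.0274) was lost without GW3965 array a (-0.18), GW3965 array b (-0.15) or Dex+GW3965 array b (-0.11), and Idi1 (-0.19, adjusted p = 0.0222) without GW3965 array a (-0.13) or Dex+GW3965 array a (-0.13). Scap (-0.30, adjusted p = 0.00356) was lost without GW3965 array b (-0.24) or Dex+GW3965 array b (-0.24), and Mvk (0.24, adjusted p = 0.00328) without GW3965 array b (0.18). Nsdhl (-0.18, adjusted p = 0.000393) was lost when its probe sets were averaged (-0.07, adjusted p = 0.122), its further probe set being at 0.04.

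**Figure D5:**
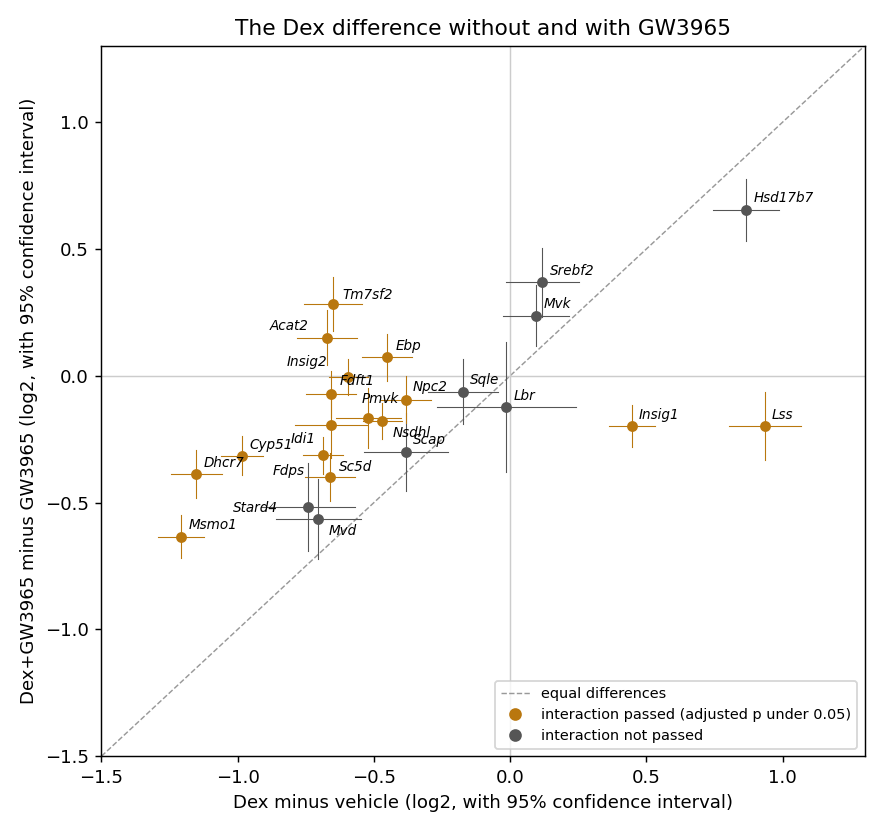
Log2 difference made by dexamethasone in livers without GW3965 (x axis) and with it (y axis) for each of the 24 genes, with 95% confidence intervals and the line of equal differences. Most genes left of 0 lie above the line, and Lss and Insig1 lie far below it, with 0.93 and 0.45 on the x axis and -0.20 on the y axis.

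The interaction, the dexamethasone difference with GW3965 minus that without it, tests whether the effects differ. It was positive for 14 of the 24 genes and negative for 2, beside 15.8% and 6.93% of all probe sets, with medians of 0.29 over the sterol genes and 0.03 over all. Sc5d is among the 14 on its brightest probe set, and a further one was at -0.08 (adjusted p = 0.405). Tm7sf2 had the highest value, 0.93 (SE 0.070, adjusted p = 3.14e-08), followed by Acat2 with 0.82 (adjusted p = 2.7e-07), Dhcr7 with 0.76 (adjusted p = 9.99e-08) and Cyp51 with 0.67 (adjusted p = 4.29e-08). Lss had the lowest, -1.13 (SE 0.089, adjusted p = 5.28e-08), and Insig1 the next, -0.64 (adjusted p = 1.99e-07). Mvd, Stard4, Scap and Hsd17b7 changed with dexamethasone in both settings and did not pass here, with 0.14 (95% confidence interval -0.08 to 0.36), 0.23 (-0.02 to 0.47), 0.08 (-0.13 to 0.30) and -0.21 (-0.38 to -0.04). A further Hsd17b7 probe set had the opposite sign, at 0.17 (adjusted p = 0.19). Quantile normalization left 12 positive and 3 negative. Over all probe sets it moved the positive share of the interaction calls from 69.5% (2571 positive, 1127 negative) to 53.5% (1836 and 1593), and the higher share of the GW3965 calls against vehicle from 29% (963 higher, 2362 lower) to 44.6% (1209 and 1504).

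GW3965 was likewise measured in separate sets of arrays, without dexamethasone (GW3965 against vehicle) and with it (Dex+GW3965 against Dex). Of the 10 genes lower without dexamethasone on their brightest probe set, Sc5d with its discordant probe sets among them, none was lower with it by limma (1 at an unadjusted p under 0.05, Tm7sf2), 5 were higher and 5 did not pass. The 5 higher with dexamethasone present were Acat2, Fdft1, Cyp51, Dhcr7 and Insig2. This split, too, was not counted over all probe sets. Mvd and Stard4 were higher in both settings, by 0.28 and 0.32 without dexamethasone and by 0.42 and 0.55 with it. Across the 24 genes Pearson's r was 0.0847.

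Further probe sets of the same genes mostly had the same direction where both passed the test. There were 17 over the single-symbol annotation, and 13 of them, for 11 genes, passed the filter. Where both probe sets of a gene passed the test, they had the same direction in 11 of 11 pairs with dexamethasone, 4 of 5 with GW3965, 9 of 9 with both and 6 of 6 for Dex+GW3965 against Dex. The exception was Sc5d with GW3965. For Dex+GW3965 against GW3965 it was 5 of 5. Pairs among the 13 in which a probe set did not pass are left out of these counts. Averaging the probe sets of each gene, those under background included, lost 8 calls. With GW3965 these were Fdft1 (-0.11, adjusted p = 0.107) and Stard4. With both against vehicle they were Mvk (0.14, adjusted p = 0.0949), Idi1 (-0.11, adjusted p = 0.0808) and Srebf2 (0.14, adjusted p = 0.189). The Mvk average takes in a probe set with a mean signal of 5.16, under background. The further Mvk probe set that passed the filter rose by 0.34 with both. Srebf2 was also lost against Dex (0.21, adjusted p = 0.0806) and against GW3965 (0.17, adjusted p = 0.117), the latter together with Nsdhl. Stard4 kept its other calls with smaller values, 0.33 against Dex (adjusted p = 0.00308) and -0.17 against GW3965 (adjusted p = 0.0494).

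The genes that feed the pathway were read from a list of acetyl-CoA and NADPH suppliers. Of 6 tested, 4 were lower with dexamethasone, 4 with GW3965 and 3 with both against vehicle, beside 24.7%, 14.5% and 21.2% of all probe sets. With both compounds 4 were higher than with Dex, beside 13.4% of all probe sets. Acss2, which makes acetyl-CoA from acetate, fell by 0.54 with dexamethasone (adjusted p = 1.28e-08) and by 0.58 with GW3965 (adjusted p = 3.11e-08), and was -0.01 from vehicle with both (adjusted p = 0.862). Its interaction was 1.11 (SE 0.062, adjusted p = 6.15e-10). Idh1, a source of NADPH, fell by 0.51 with dexamethasone (adjusted p = 4.13e-10) and was 0.01 from vehicle with GW3965 (adjusted p = 0.818).

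Genes that process SREBPs or turn over sterol-regulated proteins in the endoplasmic reticulum were called about as often as all probe sets with dexamethasone. Of 11 tested, 2 were higher and 2 lower (18.2% each), beside 17.2% and 24.7% of all probe sets. With GW3965 3 were lower (27.3%) and with both 4 were lower (36.4%), beside 14.5% and 21.2%. Erlin1, which binds SREBP complexes and holds them back, fell by 0.80 with dexamethasone (adjusted p = 6.85e-10), by 0.35 with GW3965 (adjusted p = 9.06e-05) and by 0.78 with both (adjusted p = 1.19e-09). Ube2g2, a ubiquitin-conjugating enzyme of protein disposal, rose by 0.62 with dexamethasone (adjusted p = 4.88e-07) and was 0.12 from vehicle with both (adjusted p = 0.158).

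The branches that use isoprenoids for other ends held 10 tested genes, of which 1 was higher and 1 lower with dexamethasone, 1 was higher with GW3965, and 1 was higher and 1 lower with both. With dexamethasone and with both, these shares of 10% lay below those of all probe sets, 17.2% higher and 24.7% lower with dexamethasone and 15.6% and 21.2% with both, and 5.93% of all probe sets were higher with GW3965. Dhdds, a subunit of the enzyme that extends farnesyl diphosphate toward dolichol, rose 2.55-fold with dexamethasone (1.35, SE 0.081, adjusted p = 2.44e-10) and 1.28-fold with GW3965 (0.36, adjusted p = 0.00407). Genes of sterol esters, uptake and transfer, 9 tested, had 5 lower and 1 higher with dexamethasone, 3 lower with GW3965, and 3 lower and 1 higher with both. The lower shares were 55.6%, 33.3% and 33.3%, beside 24.7%, 14.5% and 21.2% of all probe sets, and the higher share of 11.1% with dexamethasone and with both stood beside 17.2% and 15.6%. Nceh1, a cholesterol ester hydrolase, fell by a factor of 2.00 with dexamethasone (adjusted p = 1.9e-07), and Lipa, the lysosomal acid lipase, fell by 0.67 (adjusted p = 3.22e-09) and by 0.65 with both (adjusted p = 6.88e-09).

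Markers of other liver cells moved in the same arrays, and their part in the differences above was not tested. Stellate cell markers numbered 6, of which dexamethasone lowered 4 and raised 1 (66.7% and 16.7%) and GW3965 lowered 5 (83.3%), beside 24.7% lower and 17.2% higher of all probe sets with dexamethasone and 14.5% lower with GW3965. Their mean signal was between 8.46 and 8.54 with vehicle, between 8.00 and 8.02 with Dex, between 8.06 and 8.09 with GW3965, and between 7.93 and 7.94 with both. Kupffer cell markers numbered 5, of which 2 fell and 1 rose with dexamethasone, 2 rose with GW3965, and 3 fell and 1 rose with both. Over all probe sets 24.7% fell and 17.2% rose with dexamethasone, 5.93% rose with GW3965, and 21.2% fell and 15.6% rose with both. The mean of the Kupffer markers lay between 8.37 and 8.44 with vehicle, 8.28 and 8.32 with Dex, 8.69 and 8.74 with GW3965, and 8.29 and 8.31 with both.

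Sinusoidal endothelial markers, 4 in all, had a mean between 8.94 and 8.99 with vehicle, 8.65 and 8.67 with Dex, 8.90 and 8.92 with GW3965, and 8.45 and 8.47 with both. Cholangiocyte markers, 3 in all, had means between 5.78 and 6.31 over the arrays. Of 3 neutrophil markers with a probe set, the 2 tested, S100a8 and S100a9, were lower than vehicle in all 3 treated groups. Over all probe sets 24.7% were lower with dexamethasone, 14.5% with GW3965 and 21.2% with both. The mean of the neutrophil list fell from between 5.76 and 5.97 with vehicle to between 4.42 and 4.72 in the treated groups, under the background level. Of 3 erythrocyte markers with a probe set, the 2 tested, Hbb and Alas2, were higher with GW3965 and lower with both. Beside them, 5.93% of all probe sets were higher with GW3965 and 21.2% lower with both. The erythrocyte list means lay between 8.81 and 8.83 with vehicle, 8.70 and 8.76 with Dex, 9.33 and 9.40 with GW3965, and 8.28 and 8.31 with both. T and NK cell markers, of which 1 of 5 passed the filter, had means between 4.68 and 4.94, and B cell markers, of which 1 of 2 passed, between 5.01 and 6.18. Among the 6 hepatocyte markers 3 rose and 1 fell with dexamethasone (50% and 16.7%), beside 17.2% and 24.7% of all probe sets, and 1 fell with GW3965 (16.7%), beside 14.5%. Their mean was between 14.02 and 14.05 for vehicle, 14.28 and 14.30 for Dex, 13.96 and 13.98 for GW3965, and at 14.27 for both.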

How the data were processed

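Total RNA (5 µg) of each liver sample was labeled and hybridized to 8 Affymetrix arrays, 2 per group. The authors deposited log2 signals for 31099 probe sets. Per the methods, probes were first re-assigned to UniGene entries, and signals used the perfect-match probes alone, less a MAS background. The submitters' processing notes name MAS5. A normalization between arrays is not given in the sources used here, but array medians lay between 5.48 and 5.52, so none was added. That the scale is log2 was read from the range, 2.50 to 15.0. The arrays' number limits the precision, and the files hold no detection calls.

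After removal of 57 control probe sets, a probe set was kept if at least 2 arrays read it above their own median (16253 of 31042). The platform annotation gave 20826 probe sets 1 symbol, 436 several and 9780 none, and all 25 genes read here matched a RefSeq gene ID. All 8 arrays entered 1 model of group means in limma 3.58.1 under R 4.3.3 (intensity trend, 4 residual degrees of freedom, median prior 12.7), and its recovery of known changes was tested on simulated data. Group means under 5.49, the mean array median, were taken as background. All 27 genes were named, each on its brightest single-symbol probe set, with the 2 largest called members per direction of each pathway list eligible. The genes, lists and promoter motifs were chosen with earlier results of these data known. Alternatives were quantile normalization, other filters, no intensity trend, averaged probe sets, only the groups compared, a replicate block, leaving out each array and the methods' t-test. Some genes of the pathway are not reported here.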

Additional observations from a re-analysis of the deposited data

Results flagged for a closer look

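The effect of dexamethasone differed between livers with and without GW3965, by the interaction term in limma, for 16 of the 24 genes. The interaction was positive for Tm7sf2 (0.93), Acat2 (0.82), Dhcr7 (0.76), Cyp51 (0.67), Fdft1 (0.59), Insig2 (0.59), Msmo1 (0.57), Ebp (0.53), Idi1 (0.47), Fdps (0.37), Pmvk (0.35), Nsdhl (0.29), Npc2 (0.29) and Sc5d (0.26), all as log2 differences. It was negative for Lss (-1.13) and Insig1 (-0.64). Those of Sc5d and Npc2 did not pass with quantile normalization or without the intensity trend. Further Sc5d probe sets gave 0.86 (adjusted p = 4.39e-06) and -0.08 (adjusted p = 0.405). Groups of 2 arrays were not tested for outlying arrays.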

How the results depend on the processing

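Of 103 calls of single genes over the 6 comparisons, none changed direction under any alternative. Quantile normalization lost 9 calls (among them Pmvk, Fdft1 and Npc2 with GW3965 and Sqle with dexamethasone), no filter on low values 6, no intensity trend 14, averaged probe sets 8, and the fit of only the groups compared 2 of 87, while the stricter filter lost none of the 102 it tested. Quantile normalization gave 5 higher genes with dexamethasone (3 as reported), no intensity trend gave 6 lower with GW3965 (10 as reported), and averaging probe sets gave 2 higher with both compounds against vehicle (4 as reported). The causes were not tested.

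Leaving out each array lost 1 to 8 calls, with the lone array assumed to vary like the other groups. Genes lower in Dex+GW3965 against Dex then numbered 1 to 3 (2 with all arrays, and 1 without Dex array a). Genes higher with GW3965 numbered 1 to 3 (3 with all arrays, and 1 without GW3965 array a), and genes higher in Dex+GW3965 against GW3965 numbered 3 to 5 (5 with all arrays, and 3 without GW3965 array b).

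The methods' t-test has few degrees of freedom. At their threshold on unadjusted p it called 3 higher and 13 lower with dexamethasone, 1 and 8 with GW3965, 2 and 8 with both against vehicle, 9 and 2 for both against Dex, and 1 and 8 for both against GW3965. After Benjamini-Hochberg adjustment it called 0 in each direction of these 5 comparisons.

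The letters a and b gave no clear sign of pairing the arrays, with correlations of the a minus b differences between groups from -0.23 to 0.083. These correlations cannot show that pairing was absent. A fit with the replicate block kept all 103 calls, 18 lower and 3 higher with dexamethasone among them.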
